A study of Homo sapiens with 3 samples.

Results

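The broad H3K4me3 domains of the human lung adenocarcinoma line H2087, an established cell line, were the distinct intervals of its H3K4me3 peak list that were at least 1000 bp wide. They were 419 of 18585 intervals (2.25%) and held 539 kb, or 7.62%, of the 7075 kb under H3K4me3. The domains were chosen by their width, so width, summit number and the −log10 q given by the peak caller, which come from the same list, are described without a test. Chromatin of untreated H2087 cells was immunoprecipitated with an antibody against histone H3 trimethylated at lysine 4 (H3K4me3, ab8580) or acetylated at lysine 27 (H3K27ac, ab4729), with 1 library per mark, and the H3K27ac list held 24096 distinct intervals. The input library, chromatin taken without immunoprecipitation, was not analysed here. No mark was replicated and no second cell type was measured, so no comparison has a replicate error. Ranges in parentheses after a share are exact Clopper-Pearson 95% limits, or counting error alone, computed as if neighbouring intervals were independent. The lists give no read counts, so the depth is unknown, and a stretch without an interval cannot be told from one with too few reads. All positions are 1-based on hg19.

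H3K4me3 is placed by SET1 and MLL methyltransferases around the starts of active or poised genes, mostly on nucleosomes over CpG islands, and the nucleosome-poor start itself usually carries little of it. H3K27ac is placed by CBP and p300 at active promoters and enhancers. Where H3K4me3 spreads far into a gene, the gene is often one that defines the identity of the cell or is highly transcribed. In the files, the labelled cell type could be checked only through the marks at marker genes. All 8 epithelial markers, among them EPCAM, CDH1, KRT7 and KRT19, had an H3K4me3 interval of any width within 1 kb of the start of their canonical transcript, and 0 of 6 blood cell markers and 0 of 3 endothelial markers had one, beside 41.4% of all protein-coding genes. Of the 8 lung lineage markers 3 had one, NKX2-1, FOXA1 and SFTA3. Of the 6 fibroblast markers PDGFRA had one, and of the 4 neuronal markers SNAP25 and TUBB3.

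The DNA under the domains ranged from CpG-dense to CpG-poor, and 6 stretches of the GRCh37 (hg19) reference outside annotated exons are printed to show that range. Each is written 5′ to 3′ on the strand of its gene, with CG dinucleotides in capitals. The first pair lies just upstream of the outer 5′ end of a gene under a domain, CTDSP2, which encodes a phosphatase of the RNA polymerase II tail, for a domain with H3K27ac, and ITGA5, the alpha5 subunit of the fibronectin receptor, for one without. They held 18 and 11 CG dinucleotides in 200 bases.
CTDSP2 (chr12:58240513-58240712, minus strand): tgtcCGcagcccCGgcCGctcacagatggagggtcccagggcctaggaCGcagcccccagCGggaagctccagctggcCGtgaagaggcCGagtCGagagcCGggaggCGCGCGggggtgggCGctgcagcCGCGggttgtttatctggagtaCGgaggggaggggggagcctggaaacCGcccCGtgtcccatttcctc
ITGA5 (chr12:54813051-54813250, minus strand): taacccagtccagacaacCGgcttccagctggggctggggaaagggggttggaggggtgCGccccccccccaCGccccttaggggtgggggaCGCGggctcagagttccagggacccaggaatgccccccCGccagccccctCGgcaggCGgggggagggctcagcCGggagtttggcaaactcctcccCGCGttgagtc
The next 4 are the 200-base windows with the most CG inside the domains of SEMA4C, a transmembrane semaphorin, PDXK, which makes the active form of vitamin B6, TNS2, a focal adhesion protein, and KRT18, a keratin of simple epithelia, chosen after the values of these domains were seen.
SEMA4C (chr2:97534377-97534576, minus strand): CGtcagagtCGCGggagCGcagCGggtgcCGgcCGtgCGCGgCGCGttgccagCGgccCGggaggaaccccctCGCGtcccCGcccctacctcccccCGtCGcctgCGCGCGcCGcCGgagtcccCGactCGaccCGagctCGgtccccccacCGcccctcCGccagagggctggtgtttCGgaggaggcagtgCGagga
PDXK (chr21:45139521-45139720, plus strand): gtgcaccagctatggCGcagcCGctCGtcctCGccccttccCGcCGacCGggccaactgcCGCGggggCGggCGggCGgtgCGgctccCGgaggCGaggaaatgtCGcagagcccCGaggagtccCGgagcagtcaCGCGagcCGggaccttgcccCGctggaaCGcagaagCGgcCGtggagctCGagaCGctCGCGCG
TNS2 (chr12:53443386-53443585, plus strand): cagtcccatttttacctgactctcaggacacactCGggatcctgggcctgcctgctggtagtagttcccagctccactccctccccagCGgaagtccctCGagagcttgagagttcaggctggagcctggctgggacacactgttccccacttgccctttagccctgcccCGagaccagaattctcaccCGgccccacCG
KRT18 (chr12:53344691-53344890, plus strand): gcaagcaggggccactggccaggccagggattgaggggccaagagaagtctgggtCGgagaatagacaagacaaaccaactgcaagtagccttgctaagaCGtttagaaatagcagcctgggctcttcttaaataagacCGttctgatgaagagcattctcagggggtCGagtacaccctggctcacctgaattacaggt
The SEMA4C window held 31 CG and the PDXK window 30, against 6 in TNS2 and 4 in KRT18. H3K27ac lay over all 200 bases of the TNS2 and KRT18 windows and over 0 bases of the SEMA4C and PDXK windows. The SEMA4C window lay between H3K27ac intervals that ended at 97534283 and began at 97534606, in a domain 73.6% covered. Because the 4 domains were chosen with their values known, the windows cannot show how the mark relates to CpG.

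Over whole domains the same range appeared. The median GC content was 62.4% (interquartile range 57.8 to 67.4), and the median ratio of observed to expected CpG was 0.65 (0.50 to 0.75), where 1 means that CG occurs as often as its bases allow. A ratio over 0.6 was found in 245 of the 419 domains (58.5%, 53.6 to 63.2), in 61.1% (59.4 to 62.7) of the intervals of 500 to under 1000 bp, and in 41.1% (40.3 to 41.9) of those under 500 bp. The domains and the next narrower class therefore had overlapping shares, and both lay above the narrowest. Among the domains named below, the ratio was 0.16 at TNS2, 0.20 over KRT18 and 0.30 at CAPN1, and 0.87 at CDK17, a cyclin-dependent kinase family member. In the 200 bases upstream of protein-coding starts, searched on both strands, GGGCGG (the core bound by SP and KLF factors) or its complement CCGCCC was found at 72.6% of the 387 starts within 1 kb of a domain, at 74.2% of those within 1 kb of any H3K4me3 interval and at 56.0% of all starts. CCAAT or ATTGG was found at 28.4%, 30.6% and 30.3%, and TATAAA or TTTATA at 5.43%, 3.31% and 7.85%. Matches of GGGCGG or CCGCCC that do not overlap one another were counted in the printed windows. The CTDSP2 window held 1, the SEMA4C and PDXK windows 2 each and the other 3 none. The matches in CTDSP2 and SEMA4C read CCGCCC as printed, and a match is a match of letters only.

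Most domains were little wider than the limit. Their width had a median of 1174 bp (1075 to 1332 from the 25th to the 75th percentile), and 350 domains were 1000 to under 1500 bp wide, 53 were 1500 to under 2000 bp and 16 were 2000 bp or more. The members just inside the limit were at SSH3, a cofilin phosphatase (1000 bp), TSC22D2 (1001 bp) and ZFTRAF1 (1001 bp), and the intervals just outside were at ZNF697 and SGTA, a co-chaperone, each 1 bp short of the limit, and at NOTCH1, the cell-surface receptor (998 bp). The highest −log10 q of a domain had a median of 5.999 (4.52 to 7.70), against 2.97 in the narrower intervals, and was at least 5 in 285 domains (68.0%), beside 16.7% of all H3K4me3 intervals. The plot of width against −log10 q shows this spread together with the summit numbers.

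The 10 widest domains lay at MYC, LRATD2, CTDSP2, the pair ARFRP1 and ZGPAT, FBXO32, PVT1, SKP1, CYP27B1, TNS2 and SEMA4C. The widest was at MYC, the transcription factor that drives cell growth, at chr8:128748599-128752873, with 4275 bp, a −log10 q of 12.3 and 12 summits. It ran from 122 bp to 4396 bp downstream of the canonical start and overlapped exons 1 to 3, without covering the start. H3K27ac covered 70.1% of it in 4 intervals, the only domain with 4. An additional domain of 1246 bp lay upstream at chr8:128747131-128748376, ending 101 bp before the start, with 3 summits, a −log10 q of 13.1 and no H3K27ac. MYC thus had a domain on each side of its start, with H3K27ac over the downstream one alone.

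LRATD2 had the next widest at chr8:127565805-127569945, with 4141 bp, 12 summits and 82.6% of its length under H3K27ac. PVT1, a long noncoding RNA gene beside MYC, had 2790 bp and 11 summits at chr8:128806792-128809581, of which H3K27ac covered 82.9% in 3 intervals. It was the widest domain over 1 kb from every canonical protein-coding start, 58315 bp from that of MYC. FBXO32, the substrate receptor of a ubiquitin ligase linked to muscle wasting, had 2904 bp with 9 summits at chr8:124551224-124554127, and 42.4% of it was under H3K27ac. These 4 domains of chromosome 8 were among the 10 widest, and they had the lowest of their summits at a −log10 q of 1.64 to 2.96.

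CTDSP2 had the domain with the highest −log10 q of all, 32.8, at chr12:58237466-58240738. Its 3273 bp held 9 summits and covered the start and exon 1, and a single H3K27ac interval of 3302 bp with 11 summits lay over all of it. CYP27B1, the enzyme that makes the active form of vitamin D, had 2665 bp at chr12:58158467-58161131 over its start and exons 1 to 5, and H3K27ac covered 38.1%. TNS2 had 2642 bp at chr12:53442916-53445557, a −log10 q of 24.5 and 89.3% of its length under 1 H3K27ac interval. All 3 lay on the long arm of chromosome 12.

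The other 3 of the 10 widest lay on chromosomes 20, 5 and 2. ARFRP1, a GTPase of the Golgi, and ZGPAT, a zinc finger repressor, lie on opposite strands, and 1 domain of 2946 bp covered both starts at chr20:62337611-62340556, with 41.7% under H3K27ac. SKP1, the adaptor of SCF ubiquitin ligases, had 2693 bp at chr5:133511650-133514342 with 5 summits and 38.1% under H3K27ac. SEMA4C had 2591 bp at chr2:97533810-97536400 with 7 summits and 73.6% under 3 H3K27ac intervals. The 5 widest domains that covered no outer start of any annotated gene were those of PVT1, CYP27B1, TNS2, SEMA4C and PDXK. The map of 10 named domains shows that H3K27ac was continuous at CTDSP2, TNS2 and CDK4 and broken into separate intervals at MYC, FBXO32, SEMA4C and CAPN1.

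**Figure D1:**
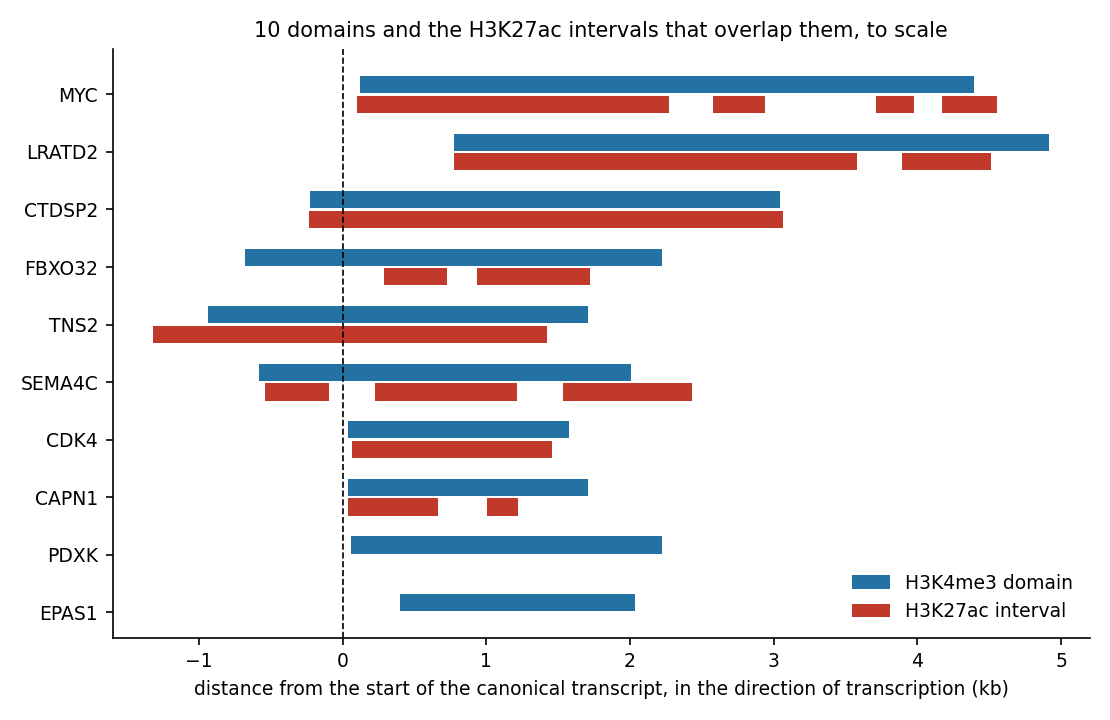
H3K4me3 domains (blue) and the H3K27ac intervals that overlap them (red) at 10 genes, drawn to scale by distance in kb from the start of the canonical transcript (dashed line), with transcription running to the right. The MYC, LRATD2, CDK4, CAPN1, PDXK and EPAS1 domains begin downstream of the start, and PDXK and EPAS1 have no H3K27ac.

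Besides CTDSP2, the highest −log10 q values were 25.9 at IGFBP6, which binds insulin-like growth factor II, 25.6 at PARD3, a scaffold of cell polarity, 25.3 at CDK4, the cyclin D kinase of G1, and 25.2 at ZHX1, a zinc finger and homeobox factor. The CDK4 domain at chr12:58144515-58146054 was 1540 bp wide, ran from 39 to 1578 bp downstream of the start over exons 1 to 5, and had 90.5% of its length under 1 H3K27ac interval. The PARD3 domain of 1113 bp lay from 533 to 1645 bp downstream of the start over no canonical exon, and 62.7% of it was under H3K27ac. PARD3 was narrower than the median domain, whereas IGFBP6 (1662 bp), CDK4 and ZHX1 (1563 bp) were among the 69 of at least 1500 bp.

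The H3K27ac list came from another library of the same cells and was not used to choose the members. Of the 419 domains, 315 (75.2%, 70.8 to 79.2) shared at least 1 bp with an H3K27ac interval, beside 31.1% of all H3K4me3 intervals. With H3K27ac intervals of a −log10 q of at least 5 alone, the share was 26%. This cut was read for the domains only, here and for length below, so no value for narrower intervals stands beside it. A wider interval has more bases to share, so the share of length and the centre base were also read. H3K27ac covered 202 kb, or 37.4%, of the domain length and 22.5% of the length of narrower intervals, and with H3K27ac intervals of a −log10 q of at least 5 alone it covered 16.3% of the domain length. The centre base lay under H3K27ac in 158 domains (37.7%, 33.1 to 42.5) and in 22.7% (22.1 to 23.3) of narrower intervals, beside 23% of all intervals.

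Within the domains of all chromosomes the share of length rose with width. From 32.8% of the length at 1000 to under 1500 bp it went to 46.1% at 1500 to under 2000 bp and 62.7% at 2000 bp or more, and below the limit it was 27.5% at 500 to under 1000 bp and 19.9% under 500 bp. The centre base was covered in 35.4% (30.4 to 40.7) of the domains of 1000 to under 1500 bp and 31.1% (29.5 to 32.7) of the intervals of 500 to under 1000 bp, intervals that overlap, so a step at 1 kb was not detectable beyond counting error. In the 16 widest it was covered in 11 (68.8%, 41.3 to 89.0).

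The peak caller's −log10 q moved with width, and its part in these shares was not tested. Among intervals with a −log10 q of at least 5, the centre base was covered in 38.5% (32.1 to 45.2) of the domains of 1000 to under 1500 bp and in 38.9% (36.1 to 41.7) of those of 500 to under 1000 bp, nearly the same values. Over all domains with that q it was 41.8% (36.0 to 47.7), against 36.0% (34.2 to 37.8) of narrower intervals, and the shares of length were 42.0% and 32.1%. Chromosomes 8 and 12 held 8 of the 16 widest domains. Without these chromosomes H3K27ac covered 34.0% of all domain length. By width it covered 31.6% at 1000 to under 1500 bp and 43.8% at 1500 to under 2000 bp. In the 8 domains of 2000 bp or more that were left it covered 46.0%, so the last step was small without these chromosomes.

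**Figure D2:**
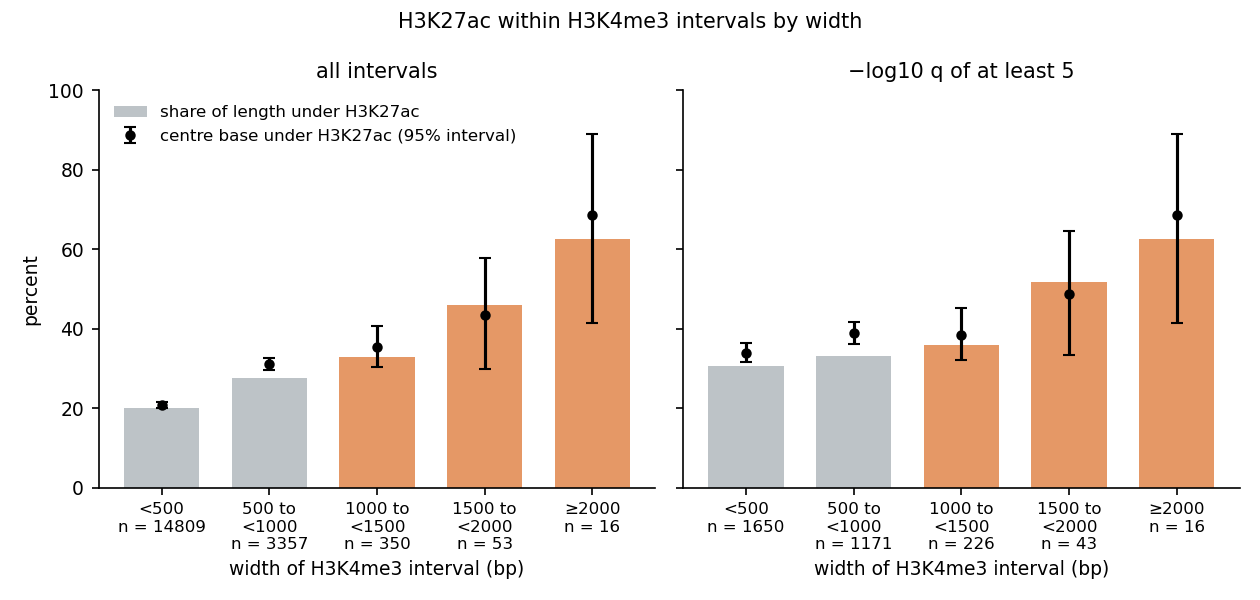
Share of the length of H3K4me3 intervals under H3K27ac (bars, percent; orange for domains, grey for narrower intervals) and share of intervals whose centre base is under H3K27ac (points, with exact 95% intervals) by width class in bp, for all intervals on the left and for those with a −log10 q of at least 5 on the right. The bars rise from 19.9% to 62.7% on the left and from 30.6% to 62.7% on the right, and the points at 500 to under 1000 bp and 1000 to under 1500 bp have overlapping error bars in both panels.

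Most domains with H3K27ac had a single interval of it. There were 242 domains with 1 interval, 66 with 2, 6 with 3 and 1 with 4, and 104 with none. In all, 396 H3K27ac intervals overlapped a domain and 238 of them lay wholly inside. The 396 had a median width of 451 bp and a median −log10 q of 3.72, against 342 bp and 3.07 for H3K27ac intervals at narrower H3K4me3 alone and 271 bp and 2.45 for those at no H3K4me3. The H3K27ac intervals at domains were thus wider and had higher −log10 q than those elsewhere, and over 75% of them were narrower than 1000 bp. Overlap was counted from 1 bp, so a wide H3K27ac interval meets a domain more easily. The 238 wholly inside had medians of 395.5 bp and 3.71.

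The next counts were made for the domains only, so no share over all H3K4me3 intervals stands beside them. At least 50% of the length was under H3K27ac in 138 domains (32.9%, 28.5 to 37.7), and all of it in 5. Besides CTDSP2 these were at COCH, a secreted protein best known from the inner ear (1460 bp), PTK6, a tyrosine kinase of epithelia (1036 bp), the KRT8 and KRT18 keratin pair (1098 bp, upstream of KRT18), and a site at chr12:58819779-58820997. The last had a −log10 q of 18.8 in a stretch without a protein-coding gene, 484429 bp from the nearest canonical start, that of ATP23, and 50% of its sampled 32-base words occur more than once in the genome. KRT18 had a further domain of 2103 bp over exons 2 to 6 with 96.6% of its length under H3K27ac.

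The 104 domains without H3K27ac had a median width of 1130 bp and a median −log10 q of 5.22, against 1195 bp and 6.28 for the 315 with it. They lay within 1 kb of a canonical start in 79.8% (70.8 to 87.0) of cases, against 83.2% (78.6 to 87.1), with overlapping limits, and had a median CpG ratio of 0.67 against 0.64. The widest were at PDXK (2160 bp), CDK17 (1696 bp), EPAS1, the hypoxia-inducible factor 2 alpha (1635 bp), NFS1 and ROMO1, genes of mitochondrial proteins on opposite strands (1631 bp), and ADAMTS15, a secreted protease (1621 bp). For 32 of the 104 an H3K27ac interval began within 1 kb of the edge, and the median distance to the nearest one was 4.33 kb (0.749 to 34.4).

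A summit is a local maximum that the peak caller lists as an entry of its own, and the domains held 1012 of them. There was 1 summit in 121 domains, 2 in 130, 3 in 104, 4 in 39, 5 in 15 and 6 to 12 in 10. The 298 domains with 2 or more made up 71.1%, beside 7.01% of all H3K4me3 intervals, which follows the width that chose them. Per kb the domains held 1.88 summits, the intervals of 500 to under 1000 bp 1.92 and those under 500 bp 3.48, where the single summit of a short interval weighs most. Among domains the density was 1.78 at 1000 to under 1500 bp, 1.98 at 1500 to under 2000 bp and 2.55 at 2000 bp or more. In the 298 domains the lowest summit had a median −log10 q of 3.54 and the highest 6.48. H3K27ac covered 29.9% of the length of domains with 1 summit, 32.3% with 2 and 44.8% with 3 or more, and these groups had median widths of 1113, 1154.5 and 1305.5 bp.

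Most domains lay next to a protein-coding start, and most of those lay downstream of it, as the narrower intervals did. The start of the canonical transcript of a protein-coding gene was within 1 kb of 345 domains (82.3%, 78.3 to 85.9), beside 52.5% of all H3K4me3 intervals. The share was 74.7% (73.2 to 76.2) at 500 to under 1000 bp and 46.6% (45.8 to 47.5) under 500 bp. A wider interval comes near more starts by its length, so the centre was also read. It lay within 1 kb of a canonical start in 65.2% (60.4 to 69.7) of the domains. At 500 to under 1000 bp this was 68.3% (66.7 to 69.8), not lower than in the domains, and under 500 bp it was 43.5% (42.7 to 44.3). The outer 5′ end of a gene, the farthest upstream start annotated for any of its transcripts, was covered by 66 domains (15.8%, 12.4 to 19.6), beside 3.38% of all intervals, and a canonical start by 79. There were 300 domains with 1 canonical start within 1 kb, 43 with 2 and 2 with 3.

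Of the 345 domains, 248 (71.9%, 66.8 to 76.6) lay wholly downstream of the nearest start, 79 covered it and 18 lay upstream. The downstream share was 78.8% (77.1 to 80.3) at 500 to under 1000 bp and 71.4% (70.3 to 72.4) under 500 bp. In the domains it was thus lower than at 500 to under 1000 bp beyond counting error. Its limits overlapped those of the intervals under 500 bp. The downstream domains began a median of 122 bp (62 to 337) and ended 1354 bp (1203 to 1691) past the start. The intervals of 500 to under 1000 bp began at nearly the same place, 140 bp, and ended at 857 bp. Intervals that reach over the start are not in these medians, and they made up 10.2% at 500 to under 1000 bp and 22.9% among the domains. The 66 domains over an outer start reached a median of 439 bp upstream of it and 890 bp downstream, and 52 of them reached farther downstream.

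H3K27ac dipped at the starts, and the shares under the domain and under H3K27ac rose from there into the gene. The first share counts the domain alone and leaves out other H3K4me3 intervals, so it is not a profile of that mark. The 100-bp bin just upstream of the start was under the domain at 21.4% of the 345 and the bin just downstream at 35.7%, and the highest share was 87.0% in the bin from 600 bp. H3K27ac was at 5.80% just upstream, peaked at 44.3% from 300 bp, and was at 16.2% from 1400 bp. The domains had to be at least 1000 bp wide, which shapes where their share is highest. The places of the peaks are therefore not compared. Split into equal parts along the direction of transcription, the 248 downstream domains had H3K27ac over 45.3% of the first part, 40.0% of the middle and 26.7% of the last. Without chromosomes 8 and 12, the values were 42.1%, 36.2% and 25.5% in 211 domains, so the order did not rest on these chromosomes.

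**Figure D3:**
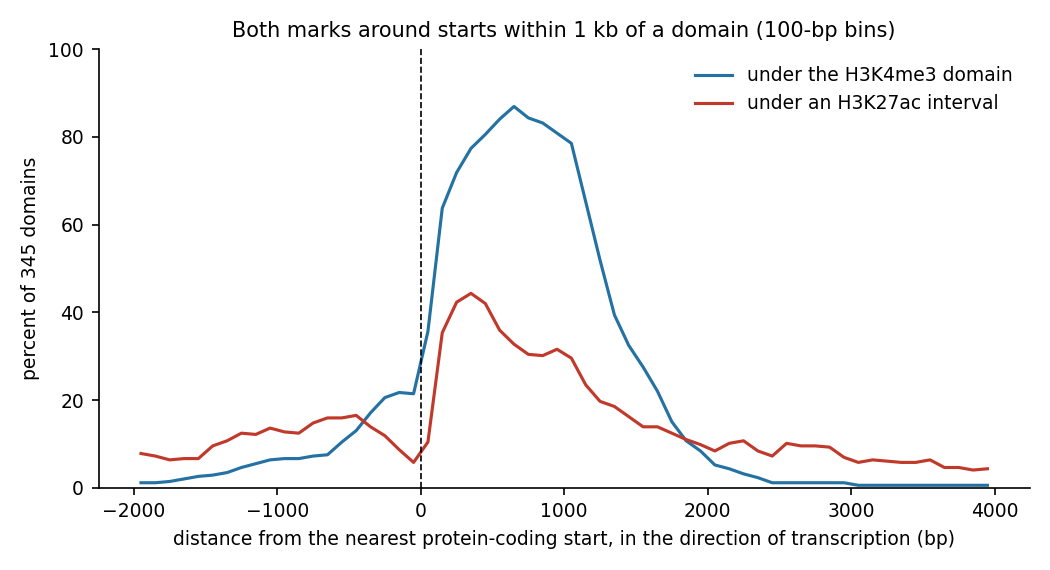
Percent of the 345 domains within 1 kb of a canonical protein-coding start (y axis) for which each 100-bp bin around that start (x axis, bp, transcription to the right) is under the domain (blue) or under an H3K27ac interval (red). The blue curve peaks at 87.0% and the red at 44.3%, with a low of 5.80% for the red just upstream of the start. The domains were chosen by width, which shapes the blue curve, and other H3K4me3 intervals are not in it.

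Exons of canonical transcripts made up 20.8% of the domain length, other parts of protein-coding genes 68.3% and sequence outside them 10.9%. At 500 to under 1000 bp these shares were 18.8%, 67.4% and 13.8%, close to those of the domains, and under 500 bp they were 13.4%, 60.6% and 26.04%. Another H3K4me3 interval lay within 500 bp of 148 domains (35.3%, 30.7 to 40.1), as at MYC, and a canonical start lay in 50 of the 163 gaps between them (30.7%, 23.7 to 38.4), against 24.7% (22.99 to 26.4) of all such gaps. A start of any transcript lay in 71 of the 163 gaps (43.6%, 35.8 to 51.5), and what made the gaps was not tested. The number of domains depends on how such gaps are treated, and joining intervals within 500 bp gave 1685 of at least 1000 bp.

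The widest domains over several outer starts lay at genes on opposite strands. Those that covered the outer starts of a pair or more, after ARFRP1 and ZGPAT, were at ARHGEF40, a guanine nucleotide exchange factor, and NDRG2 (1738 bp, 18.7% under H3K27ac), at NSMCE2, a SUMO ligase of DNA repair, and WASHC5, a part of the WASH actin complex (1662 bp, 16.9%), at NFS1 and ROMO1 (1631 bp, none), and at MRPL13, a mitochondrial ribosomal protein, and MTBP (1535 bp, none). In these 4 at most 18.7% of the length was under H3K27ac. The share was higher at ARFRP1 and ZGPAT (41.7%) and in a narrower domain over the outer starts of LMNA and MEX3A (25.1%).

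Away from canonical protein-coding starts there were 74 domains. Of these, 29 had the start of another protein-coding transcript within 1 kb, 18 the start of a long noncoding RNA gene and 28 neither, with 1 counted under both kinds. H3K27ac overlapped 53 (71.6%, 59.9 to 81.5), beside 25.8% of all H3K4me3 intervals that far from a start and 44.5% at 500 to under 1000 bp. The centre base was covered in 29.7% (19.7 to 41.5) of the 74 and in 27.2% (24.3 to 30.4) at 500 to under 1000 bp, with overlapping limits. The median CpG ratio of the 74 domains was 0.50, against 0.66 at the 345 near starts. In 4 domains over 50% of the 32-base words occur more than once in the genome, and none of these was at a gene start. On chromosome 2 they included a pair 391057 and 392377 bp from the starts of the plasminogen-like genes PLGLB2 and PLGLB1, and the others had RICTOR, a subunit of mTORC2, and TPTE as the nearest genes. Reads there could come from another copy, and all 4 lay at least 38871 bp from a canonical start.

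Of 20136 protein-coding genes, 387 (1.92%) had a domain within 1 kb of their canonical start and 41.4% an H3K4me3 interval of any width. Among the epithelial markers 3 of 8 had a domain. They were CDH1, E-cadherin (1179 bp, 46.8% under H3K27ac), KRT18 with the domains given above, and ELF3, an epithelial ETS factor (1592 bp, 24.1%). The lung lineage list had 0 of 8, and the blood, endothelial, fibroblast and neuronal lists 0 of 6, 0 of 3, 0 of 6 and 0 of 4.

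The cell cycle list had 2 of 20, CDK4 and CCND1, cyclin D1, whose domain of 1632 bp had 1 summit, a −log10 q of 3.58 and 36.4% under H3K27ac. Of 12 MYC family and partner genes MYC had one, and of 21 KLF and SP genes KLF10, a zinc finger factor induced by TGF-beta (1012 bp, 97.8%). SPRED2, which inhibits RAS to ERK signalling, was 1 of 18 MAPK feedback genes (1110 bp, 21.1%). None of 14 AP-1 genes had a domain, and 10 had an H3K4me3 interval of any width. None of 20 lung adenocarcinoma driver and suppressor genes had a domain, and 12 had an interval. Over all protein-coding genes these shares were 1.92% and 41.4%, so the lack of a domain in lists this small is near the share over all genes.

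The NF-kB and stress list had 3 of 20. ATF4, the factor of the integrated stress response, had 1123 bp with a −log10 q of 1.72, DDIT4, an inhibitor of mTORC1, 1810 bp with 69.6% under H3K27ac, and HSPA8, a constitutive chaperone, 1466 bp with no H3K27ac. KMT2A, an H3K4 methyltransferase, was 1 of 20 histone modifier genes, with 1297 bp that ended 743 bp upstream of its start and no H3K27ac. Cytosolic ribosomal protein genes had 7 of 79, with 56 under any H3K4me3. Among them were RPL8 (1528 bp, 59.3% under H3K27ac), RPL10A (1300 bp, 69.7%) and RPL28 (1067 bp), which had no H3K27ac. These lists are described by their counts beside the 1.92%, and no list was tested.

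CAPN1, the catalytic subunit of calpain 1, a calcium-dependent protease, was 1 of 17 calpain system genes and had the only domain of that list, and it is one of the genes that the study followed up. Its domain at chr11:64949440-64951106 was 1667 bp wide with 3 summits and a −log10 q of 5.10 (lowest summit 3.35). It ran from 41 to 1707 bp downstream of the canonical start over exons 1 to 4. H3K27ac intervals of 624 bp, starting at the same base as the domain, and of 219 bp lay inside it and covered 50.6%. In width CAPN1 was beyond the interquartile range of the domains, and in −log10 q it was inside it.

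The domains were unevenly spread over chromosomes. On chromosome 20 they were 4.07% (2.50 to 6.21) of the H3K4me3 intervals, on chromosome 12 3.70% (2.68 to 4.97), on chromosome 8 3.38% (2.27 to 4.81) and on chromosome 11 3.36% (2.47 to 4.45), against 2.25% over all. Chromosome 4 had 0.450% (0.0546 to 1.62) and chromosome 6 had 0.531% (0.110 to 1.54). There were 0 on chromosome 13, which had 199 intervals, and 0 on chromosomes 18, X and Y, which had 68, 50 and 7. Chromosomes 8 and 12 held 71 domains (16.9%) and 10.7% of the intervals. Their domains had median −log10 q values of 9.57 and 8.81, against 5.73 over all domains of the other chromosomes, and copy number in this line was not measured here.

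The domains also clustered within chromosomes, in stretches of 5 Mb read after the values were seen. At 65 to 70 Mb of chromosome 11, 17 of 249 intervals (6.83%, 4.03 to 10.7) were domains, CCND1 among them. At 55 to 60 Mb of chromosome 12, around CDK4 and CTDSP2, there were 14 of 142 (9.86%, 5.50 to 15.99), with a median −log10 q of 18.7 and 61.5% of the length under H3K27ac. At 125 to 130 Mb of chromosome 8, around MYC and PVT1, there were 10 of 120 (8.33%, 4.07 to 14.8), with 11.8 and 62.4%. At 30 to 35 Mb of chromosome 20, by contrast, the 9 domains of 106 intervals had a median of 6.72 and 22.2% of their length under H3K27ac.

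**Figure D4:**
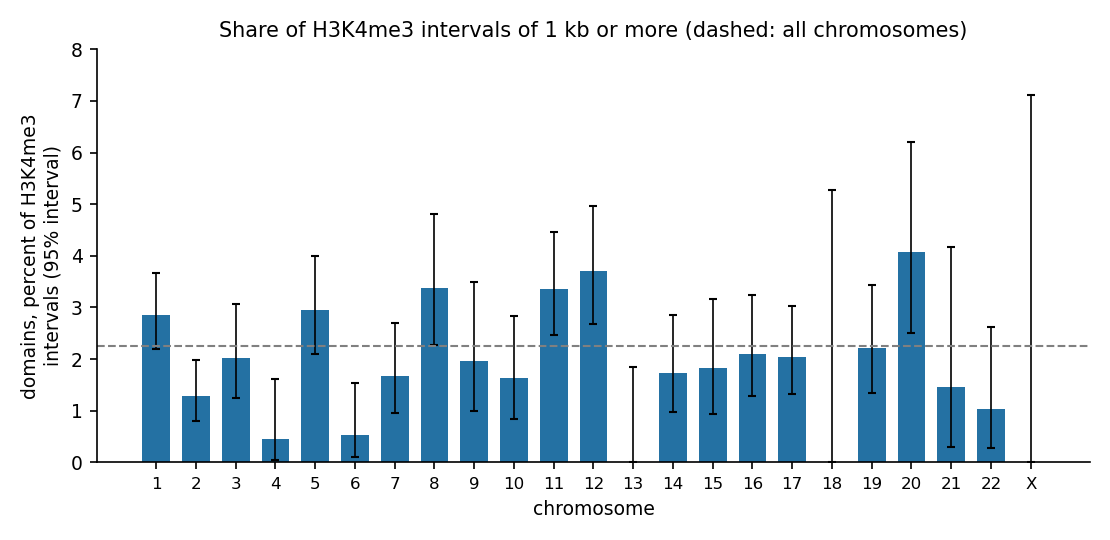
Domains as a percent of the H3K4me3 intervals of each chromosome (bars, with exact 95% intervals), and of all chromosomes together (dashed line, 2.25%), with chromosome Y (7 intervals, 0 domains) left out. The bars of chromosomes 20, 12, 8 and 11 are the tallest, and those of 4 and 6 are the lowest above 0.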

How the data were processed

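H3K27ac and H3K4me3 ChIP-seq of H2087 cells was available as 1 peak list per mark. According to the submitters' processing notes, bcl2fastq 1.8.4, Bowtie 1.1.1, SAMtools 1.2, Picard 1.118, MACS2 2.1.0 and ChIPseeker 1.6.6 were used with hg19. The study's methods give normalization as the purpose of the input. The peak threshold, the treatment of duplicate reads and whether the input was the control in the peak calling are not given in the sources used here. The last column of the lists was made with the peak caller by the authors before they were deposited, and was read as −log10 q from the values alone. It has no header, and the lowest, 1.31 for H3K4me3 and 1.30 for H3K27ac, lie at a q of 0.05, whose −log10 is 1.30. The 20282 H3K4me3 and 25275 H3K27ac entries were reduced to 18585 and 24096 distinct intervals, each with its highest −log10 q, and repeated entries were counted as summits.

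Intervals of at least 1000 bp were kept as domains. Gene positions were those of GENCODE 44 on GRCh37. The Ensembl canonical start, with the outer 5′ end for 282 genes without one, was added after the data were seen. Overlap was at least 1 bp. Calculations used Python 3.11.15, numpy 2.4.6, pandas 2.3.3, scipy 1.17.1 and pysam 0.24.0 and were tested on simulated intervals. The domains and the 16 gene lists were chosen with earlier results of these data known, and PECAM1 was not found in the annotation. Named domains were the 10 widest, the 5 with the most summits, the highest −log10 q, the highest share under H3K27ac, no H3K27ac, no start of a gene or several starts, the members at the limit, CAPN1 and members of the lists. The alternatives were other widths, joined intervals, a −log10 q of at least 5, chromosomes 8 and 12 left out, other overlaps, other starts and a 300-bp window. No test was possible with 1 library per mark. Some members of the gene lists are not reported here by name.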

Additional observations from a re-analysis of the deposited data

How the results depend on the processing

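Of 48 alternatives over 13 values, 36 moved the value by more than its tolerance, which was a factor of 1.5 for counts and reach, 1 percentage point for length and the 95% interval for shares and medians. Most changes follow from how the alternative was built. Widths of at least 1500 and 2000 bp left 69 and 16 domains, of which 27.5% and 31.2% covered an outer start, 91.3% and 93.8% overlapped H3K27ac, 51.6% and 62.7% of the length was under it, 92.8% and 100% had 2 or more summits, and the median −log10 q was 7.63 and 11.7. Joining intervals within 500 bp gave 1685 domains, and these values became 31.8%, 66.9%, 25.8%, 94.6% and 5.26. A −log10 q of at least 5 gave 79.6% overlap, 42.0% of length, 83.5% with 2 or more summits and a median of 6.96. Without chromosomes 8 and 12 the length under H3K27ac was 34.0%.

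The 15.8% that covered a start became 52.7% with the starts of every transcript, 24.8% with those of all genes and 70.4% with a start within 1 kb, and the 82.3% near a canonical start, a value added after the data were seen, became 70.4% with outer ends. The overlap of 75.2% became 32.9% when 50% of the domain had to be covered, 50.6% for an H3K27ac interval wholly inside, 82.8% within 1 kb and 26% for H3K27ac with a −log10 q of at least 5, which left 16.3% of the length. The CpG ratio was 0.59 in the 300 bp around the centre. Genes of the lists under a domain numbered 2 by a covered outer start, 16 by one within 1 kb, 12 by a start of any transcript and 20 by a canonical start within 1 kb. The depth of the libraries is unknown, so what it limits was not tested. No paired analysis was possible because no mark was replicated.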
